A study of Mus musculus with 6 samples.

Results

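The genes described here are 7 complement genes, namely the C1q chain genes C1qa, C1qb and C1qc, the central component C3, its alternative pathway partners Cfb and Cfp, and the C3a receptor gene C3ar1. They were taken by gene symbol, matched from the Ensembl identifier, and all 7 were found among the 34745 genes of the deposited count table. The samples were wild-type mouse bone marrow-derived macrophages, primary cells grown in M-CSF at 20 ng/ml, of which 3 libraries came from cultures pretreated with a KAT8 inhibitor and 3 from cultures pretreated with the solvent DMSO. KAT8 is a histone acetyltransferase, and the compound, its dose and the length of pretreatment are not given in the labels. Cells of both groups then received R848, an agonist of Toll-like receptor 7, at 100 ng/ml for 6 h, so each difference below is one between stimulated cells. The comparison asks how inhibitor pretreatment changed complement transcripts in these cells.

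Complement is a protein cascade that marks microbes and cell debris for uptake. C1q, built from A, B and C chains, binds targets and activates the proteases C1r and C1s, of which C1s cleaves C4 and C2. The cleavage of C3 joins all routes, and factor B and properdin form and stabilise the alternative pathway enzyme that cleaves more C3. The small fragment C3a acts through its receptor on myeloid cells. Most plasma complement is made in the liver, whereas macrophages are a main source of C1q and properdin and also make C3 and factor B.

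The 3 C1q genes lie side by side on the minus strand of chromosome 4 in mm10, in the order C1qb (136880129 to 136886187), C1qc (136889804 to 136893065) and C1qa (136895917 to 136898803). C3 (57203970 to 57228136) and Cfb (34856374 to 34862518) are on the minus strand of chromosome 17, C3ar1 (122847138 to 122856161) is on that of chromosome 6, and Cfp (20925454 to 20931555) is on that of the X chromosome. Promoter windows, which run from 250 bases before to 50 bases after the annotated start, were given in the RefSeq table of build GRCm38.p6 for 5 of the 7 genes. Those of 4 genes whose transcripts changed are shown, since 3 of them fell and C3ar1 rose. All are on the minus strand, at chr4:136886151-136886450 (C1qb), chr4:136892865-136893164 (C1qc), chr17:57228087-57228386 (C3) and chr6:122856108-122856407 (C3ar1), and are written in the direction of transcription. Capitals mark letters that match a searched motif on either strand.
C1qb: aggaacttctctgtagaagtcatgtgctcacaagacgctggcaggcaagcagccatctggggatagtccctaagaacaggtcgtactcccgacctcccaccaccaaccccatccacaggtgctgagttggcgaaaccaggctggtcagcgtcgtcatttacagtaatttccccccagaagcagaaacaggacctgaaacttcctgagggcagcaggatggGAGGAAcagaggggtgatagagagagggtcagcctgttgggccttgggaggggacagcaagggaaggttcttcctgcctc
C1qc: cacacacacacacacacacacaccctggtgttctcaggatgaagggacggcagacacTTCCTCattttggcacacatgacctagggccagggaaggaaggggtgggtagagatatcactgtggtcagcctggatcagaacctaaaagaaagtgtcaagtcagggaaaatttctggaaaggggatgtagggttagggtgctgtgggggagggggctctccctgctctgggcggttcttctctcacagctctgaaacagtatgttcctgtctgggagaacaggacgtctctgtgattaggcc
C3: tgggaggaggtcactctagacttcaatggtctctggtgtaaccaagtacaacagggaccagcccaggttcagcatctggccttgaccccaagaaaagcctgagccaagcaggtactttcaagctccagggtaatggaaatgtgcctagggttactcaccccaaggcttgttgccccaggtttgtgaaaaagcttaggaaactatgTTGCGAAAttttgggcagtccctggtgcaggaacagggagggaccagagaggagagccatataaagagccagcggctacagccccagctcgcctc
C3ar1: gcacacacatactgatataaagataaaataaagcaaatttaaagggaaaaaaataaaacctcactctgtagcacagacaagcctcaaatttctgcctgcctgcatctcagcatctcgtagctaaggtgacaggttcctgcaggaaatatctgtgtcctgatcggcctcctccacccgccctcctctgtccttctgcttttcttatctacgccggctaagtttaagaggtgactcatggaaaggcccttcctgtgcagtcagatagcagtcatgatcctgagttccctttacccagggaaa

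The motifs searched were GAGGAA (core of sites for the macrophage factor PU.1), GAAANNGAA (interferon-stimulated response element), TGCTGAC (part of a Maf recognition element), TTGCNNAA (C/EBP) and GGANTTTCC (NF-kB), of which no 2 overlapped in these windows. C1qb held 1 PU.1 core, whose first letter lies 30 bases before the start, and C1qc held 1 on the other strand. Windows with a PU.1 core were 28.3% of the 32851 windows in the table. C3 held a C/EBP match 45 bases before the start, a motif found in 10.8% of windows. C3ar1 held none of the 5 motifs, and Cfp held 2 PU.1 cores. The interferon, Maf and NF-kB letters, present in 8.56%, 4.67% and 1.25% of all windows, were in none of these 5. Such matches describe letters only.

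Library totals ranged from 18441352 to 25089320 counts, and 13815 genes passed the filter on low counts, all 7 complement genes among them. Of the tested genes 51.5% were called at an adjusted p under 0.05 (edgeR's quasi-likelihood test, Benjamini-Hochberg adjustment), 24.9% being higher and 26.5% lower with the inhibitor. With library totals alone as scaling, 4887 genes were higher and 2843 lower in place of 3446 and 3667, and the median over all genes moved to a log2 fold change of 0.12, against 0.01. Of 10 macrophage markers 7 were lower, while Csf1r, Cd68 and Spi1 did not pass the test. Markers of stromal cells, which are known to make C3, C1r, C1s and C4, were present, and most of them fell with the inhibitor. Of 9 such markers 7 were lower and none was at 0, while Pdgfra and Lum did not pass the test. Their summed level was 2133 to 2263 CPM (counts scaled to a fixed library size) with the inhibitor and 4345 to 5138 CPM with DMSO. Pdgfra was at 441 ± 20.5 CPM with the inhibitor and 418 ± 30.3 CPM with DMSO (SD, n = 3). Macrophage markers summed to 7890 to 7983 CPM with the inhibitor and 12162 to 13899 CPM with DMSO. Most of that fall came from Lyz2 alone, whose mean was 4188 CPM with the inhibitor and 8591 CPM with DMSO. Neutrophil markers, of which 2 of 7 were tested and both were lower, summed to 1.99 to 2.85 CPM with the inhibitor and 6.41 to 7.11 CPM with DMSO, with Ly6g, S100a9, Elane and Ngp at 0. The part of these cell types in the results below was not tested. In bulk samples fewer cells of a type cannot be told apart from less RNA per cell.

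Of the 7 genes, 5 fell (C1qa, C1qb, C1qc, C3 and Cfb), C3ar1 rose and Cfp did not pass the test. The falls were 1.73-fold to 2.76-fold, or to 2.13-fold where the gene that overlaps Cfb is added to it, and the rise of C3ar1 was 2.00-fold. Their median was −0.91 on the log2 scale, against 0.01 for all tested genes. For 6 of the 7 genes the inhibitor values lay wholly outside the range of the DMSO values, as they did for 60.6% of all tested genes.

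**Figure D1:**
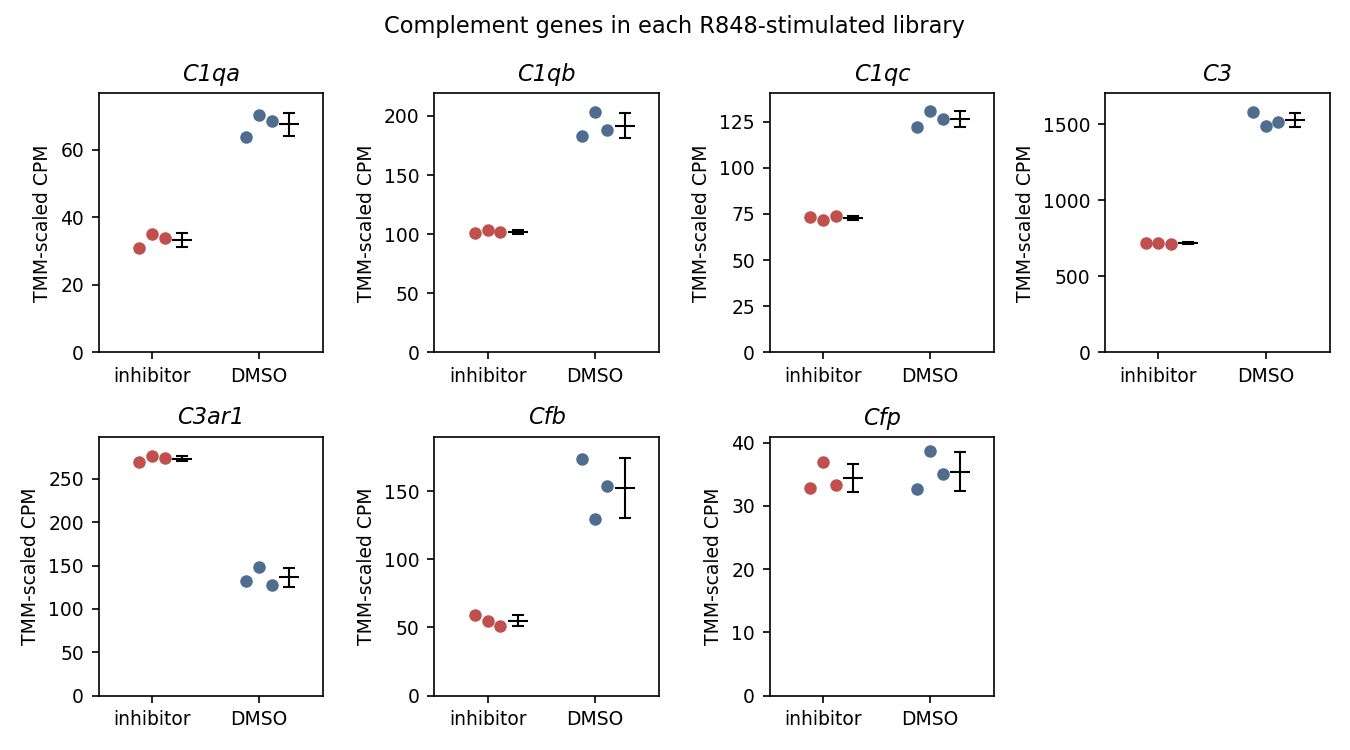
TMM-scaled CPM of the 7 genes, with 1 point for each library and the mean ± SD (n = 3) beside the points of each group; each vertical axis starts at 0. Inhibitor points lie below all DMSO points for C1qa, C1qb, C1qc, C3 and Cfb, above them for C3ar1, and among them for Cfp.

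The C1q chains fell together. C1qa, the A chain gene, was at 30.9, 35.0 and 33.9 CPM (scaled by the TMM method) in the 3 inhibitor libraries and at 63.7, 70.3 and 68.5 CPM in the DMSO libraries. Every inhibitor value was below every DMSO value, a 2.03-fold fall (log2 fold change −1.02, SE 0.067, adjusted p = 8.69e-06). C1qb, which encodes the B chain, was at 100.5, 103.2 and 101.8 CPM with the inhibitor and at 183.1, 203.4 and 188.4 CPM with DMSO. The groups were again apart and the fall was 1.88-fold (log2 fold change −0.91, SE 0.049, adjusted p = 3.30e-06). C1qc, the C chain gene, was at 73.3, 71.8 and 73.9 CPM with the inhibitor and at 122.1, 130.7 and 126.5 CPM with DMSO. Its 1.73-fold fall was the smallest of the 3 (log2 fold change −0.79, SE 0.044, adjusted p = 3.52e-06).

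Ratios between the chains were taken within each library, where scaling has no part. The C1qa count was 0.308, 0.339 and 0.333 of the C1qb count in inhibitor libraries, against 0.348, 0.346 and 0.364 in DMSO libraries. The C1qc count was 0.729, 0.696 and 0.726 of the C1qb count in inhibitor libraries, against 0.667, 0.643 and 0.671 in DMSO libraries. The first ratio was thus slightly lower with the inhibitor (log2 difference −0.11) and the second slightly higher (0.12), with no overlap between groups. For both, the two-sided exact permutation p was 0.1, the smallest that 3 libraries against 3 allow, and 0.1 when adjusted over the 4 ratios tested, so neither could pass 0.05.

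C3, the component on which all complement routes converge, was the most abundant of the 7. It was at 719.8, 720.4 and 711.9 CPM in inhibitor libraries and at 1577, 1488 and 1514 CPM in DMSO libraries. The groups were far apart, and the inhibitor libraries were close to each other (717 ± 4.72 CPM, against 1527 ± 45.8 CPM with DMSO; SD, n = 3). The fall was 2.13-fold, a log2 fold change of −1.09 (95% interval −1.18 to −0.996, adjusted p = 6.52e-07), and C3 ranked 63 by p among the 13815 tested genes. C3 reads made up 0.0745% of all counts in each inhibitor library and 0.141% to 0.155% in DMSO libraries.

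Cfb encodes factor B, which supplies the protease of the alternative pathway enzyme. It was at 59.3, 54.9 and 51.1 CPM with the inhibitor and at 173.6, 129.5 and 153.8 CPM with DMSO. The groups did not overlap, and the fall was 2.76-fold (log2 fold change −1.47, SE 0.11, adjusted p = 1.40e-05). This was the largest fall of the 7 in the counts as deposited, but its size depends on how reads were assigned. Exons of Gm20547, an annotated protein-coding gene that spans Cfb and C2 on the same strand, cover 79.5% of the Cfb exon bases and 42.8% of those of C2. Of the counts given to Cfb and Gm20547 together, Cfb took 73.0%, 62.1% and 56.7% in inhibitor libraries and 90.3%, 74.1% and 86.3% in DMSO libraries. The split thus varied within groups as well as between them.

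The sum of both was steadier, at 81.1, 88.4 and 90.1 CPM with the inhibitor and 192.2, 174.9 and 178.2 CPM with DMSO. It fell 2.10-fold (log2 fold change −1.07, SE 0.057, adjusted p = 3.06e-06), which is no longer larger than the 2.13-fold fall of C3. With C2 added, the fall was 2.05-fold (−1.04, SE 0.059, adjusted p = 4.05e-06). These sums were chosen after the data had been seen. Gm20547 alone, at 31.4 ± 8.74 CPM with the inhibitor and 29.5 ± 14.1 CPM with DMSO (SD, n = 3), did not pass the test (adjusted p = 0.842).

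**Figure D2:**
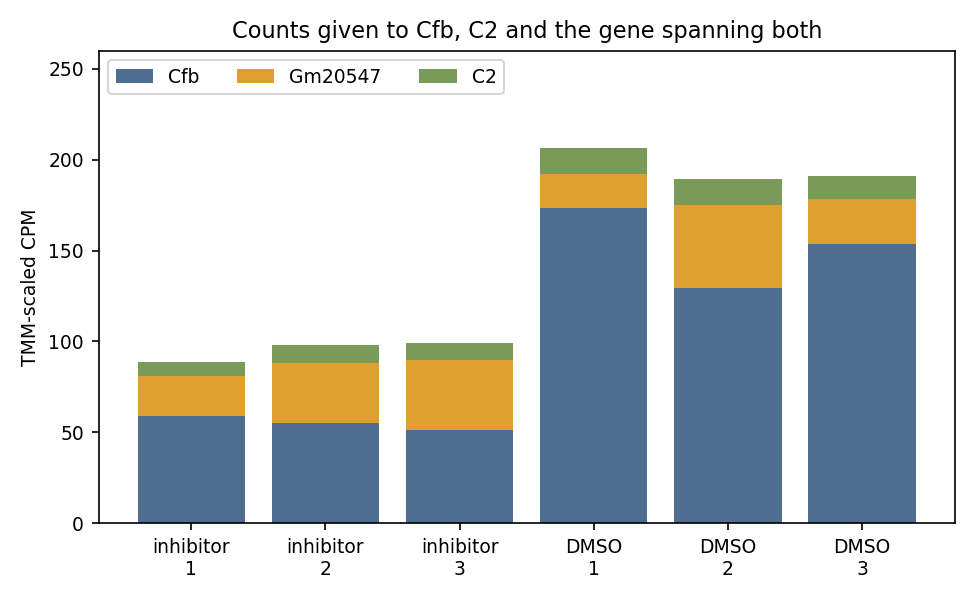
TMM-scaled CPM given to Cfb, to the overlapping gene Gm20547 and to C2, stacked for each of the 6 libraries. The stacks reach 88.8 to 99.3 CPM with the inhibitor and 189.6 to 206.6 CPM with DMSO, while the part given to Gm20547 varies from library to library.

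The C3 count was 12.1, 13.1 and 13.9 times that of Cfb in inhibitor libraries, against 9.08, 11.5 and 9.84 times in DMSO libraries. That difference (log2 difference 0.37, exact two-sided permutation p = 0.1, adjusted 0.1) was lost when Gm20547 was added to Cfb. The ratio was then 8.87, 8.15 and 7.90 with the inhibitor and 8.20, 8.51 and 8.50 with DMSO, with overlapping groups and a log2 difference of −0.02. The falls of C3 and of the summed Cfb locus thus differed by less than the spread between libraries.

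Cfp encodes properdin, which stabilises the alternative pathway enzyme. It was at 32.9, 37.0 and 33.4 CPM with the inhibitor and at 32.6, 38.6 and 35.0 CPM with DMSO. The groups overlapped, and the log2 fold change of −0.04 did not pass the test (95% interval −0.23 to 0.14, adjusted p = 0.681). Its sign was positive with library totals as scaling (0.07) and without DMSO replicate 2 (0.02), so no direction can be given, and the interval excludes a fall of the size of the other components.

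C3ar1, the C3a receptor gene, was the only one of the 7 called higher. It was at 270.1, 276.5 and 273.6 CPM in inhibitor libraries and at 132.5, 149.0 and 128.1 CPM in DMSO libraries. Every inhibitor value was above every DMSO value, with a log2 fold change of 1.00 (95% interval 0.87 to 1.14, adjusted p = 5.09e-06). Of all tested genes, 96.6% had a lower log2 fold change. The C3ar1 count was 0.375, 0.384 and 0.384 of the C3 count in inhibitor libraries, against 0.0840, 0.1001 and 0.0846 in DMSO libraries. This was the widest difference of the 4 ratios tested (log2 difference 2.09, exact two-sided permutation p = 0.1, adjusted 0.1).

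C5ar1, the receptor for the fragment C5a and a close relative of C3ar1, went the other way. It was at 46.2, 49.3 and 45.7 CPM with the inhibitor and at 123.4, 135.1 and 140.2 CPM with DMSO (log2 fold change −1.50, SE 0.060, adjusted p = 8.91e-07). C3ar1 thus had 5.85, 5.61 and 5.99 counts for each C5ar1 count in inhibitor libraries and 1.07, 1.10 and 0.913 in DMSO libraries. The choice of this pair was made after the values were seen, and the ratio was not tested.

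**Figure D3:**
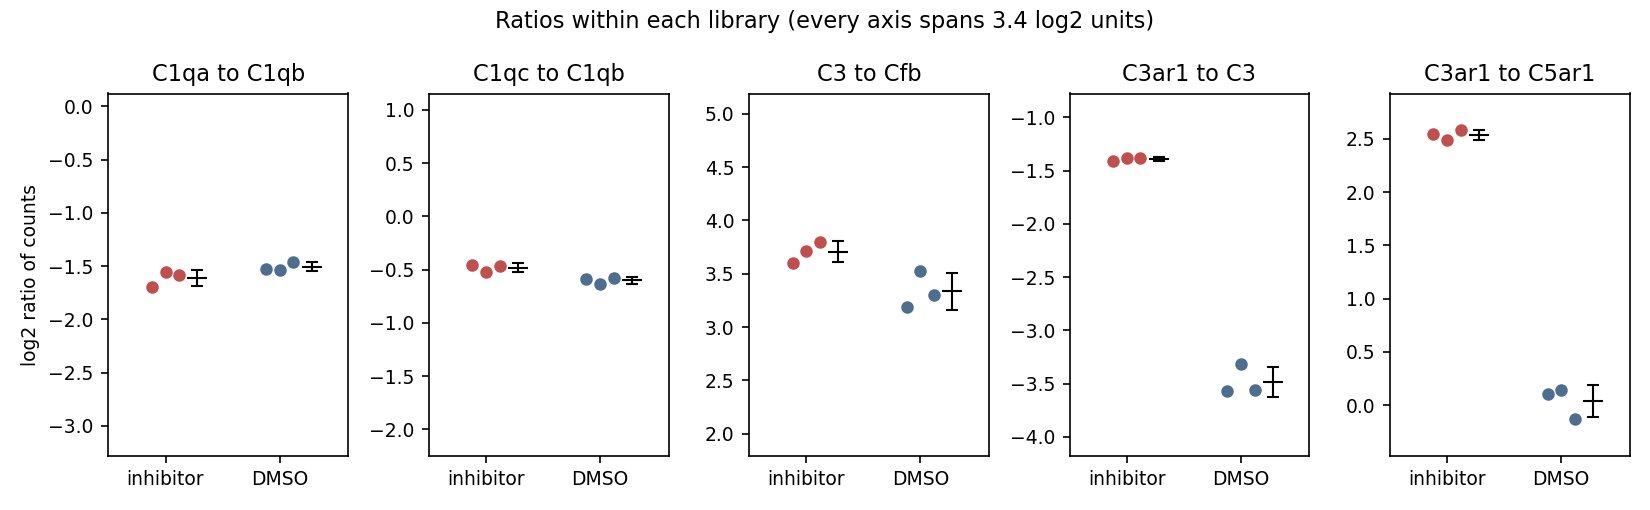
Log2 ratio of the counts of 2 genes within each library, with 1 point for each library and the mean ± SD (n = 3) beside the points; all vertical axes span the same range. With the inhibitor the ratio of C1qa to C1qb shifts by −0.11 and that of C1qc to C1qb by 0.12, whereas that of C3ar1 to C3 shifts by 2.09.

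Per length, as RPKM (TMM-scaled CPM per kilobase of exon), the order of the genes differed between groups. In inhibitor libraries it was C3 (139 ± 0.918 RPKM; SD, n = 3 throughout), C1qb (93.6 ± 1.26), C3ar1 (63.5 ± 0.744), C1qc (37.8 ± 0.563), C1qa (32.0 ± 2.04), Cfp (19.8 ± 1.304) and Cfb (19.5 ± 1.45). In DMSO libraries it was C3 (297 ± 8.91 RPKM), C1qb (176 ± 9.71), C1qc (65.5 ± 2.24), C1qa (64.9 ± 3.31), Cfb (53.9 ± 7.82), C3ar1 (31.7 ± 2.56) and Cfp (20.4 ± 1.74). C3ar1 stood above C1qc and C1qa with the inhibitor and below both with DMSO. Values overlapped between Cfp and Cfb with the inhibitor, and between C1qc and C1qa and between C1qa and Cfb with DMSO. C3 exceeded 98.0% of tested genes on this scale in inhibitor libraries and 99.0% in DMSO libraries. The place of Cfb rests on the counts given to it alone. With those of Gm20547 added it was at 86.5 rather than 55.1 CPM with the inhibitor and at 182 rather than 152 CPM with DMSO, and no RPKM was computed for the sum. The level of C1qc depends on its annotated length, since the longest transcript alone gives it 60.7 ± 0.904 RPKM with the inhibitor and 105 ± 3.60 RPKM with DMSO. Its place in the order stays the same, below C3ar1 with the inhibitor, below C1qb with DMSO and above C1qa in both groups.

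**Figure D4:**
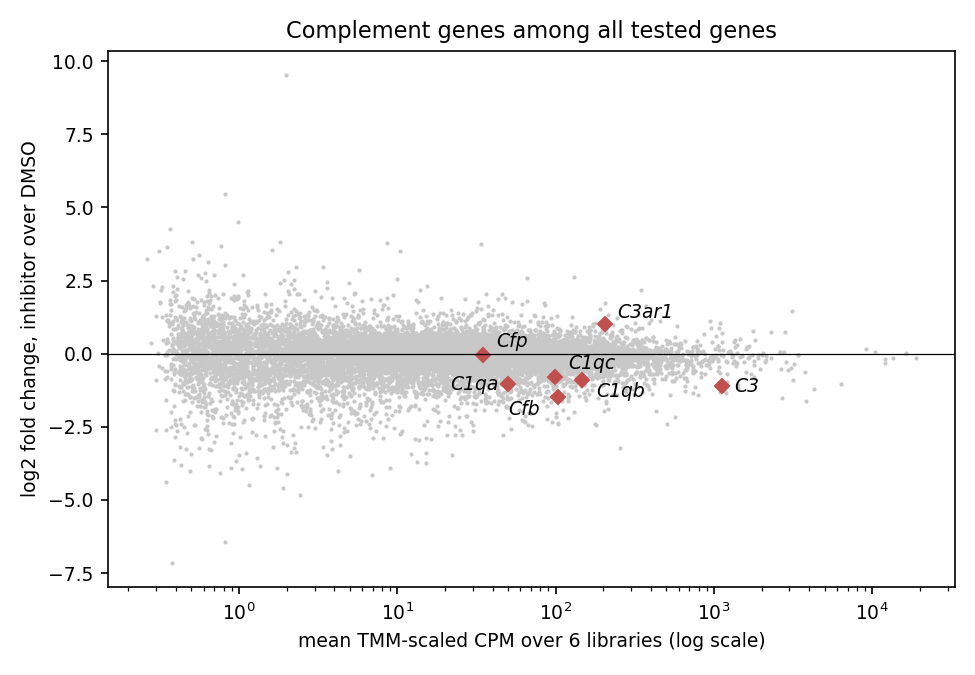
Log2 fold change, inhibitor over DMSO, against the mean TMM-scaled CPM over the 6 libraries (log scale) for the 13815 tested genes (grey), with the 7 complement genes as red diamonds. C3ar1 lies at 1.00 and C3, the most abundant of the 7, at −1.09, while Cfp lies at −0.04.

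The other genes of the system were read from a list of 55 that includes the 7. Of these, 29 passed the filter, 14 were at 0 in every library and 12 had no more than 9 counts in any library. Apart from the 7 genes, 22 were tested, of which 12 fell, 1 rose and 9 did not pass, with a median log2 fold change of −0.40. Over all tested genes 26.5% fell and 24.9% rose, and the median was 0.01.

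Of the other classical pathway genes C1s1, C1ra, C4b and C2 fell, C4a did not pass, and C1rb and C1s2 had too few counts to be tested. C1s1, which encodes the protease C1s, was at 122 ± 4.14 CPM with the inhibitor and 218 ± 17.3 CPM with DMSO (log2 fold change −0.83, SE 0.062, adjusted p = 1.69e-05; SD, n = 3). C1ra, its partner protease C1r, fell less, to 31.1 ± 1.41 CPM with the inhibitor against 40.3 ± 1.48 CPM with DMSO (−0.37, SE 0.062). C4b, which encodes complement C4, fell 2.12-fold, to 13.4 ± 0.878 CPM with the inhibitor against 28.4 ± 2.04 CPM with DMSO. C1s1 shares 18.4% of its exon bases with the antisense gene Gm16567. C2 fell 1.56-fold (adjusted p = 0.00205), but summed with Gm20547 it did not pass (log2 fold change −0.11, adjusted p = 0.739). C2 held only 19.2% to 43.6% of the counts of that sum, so the sum cannot show whether C2 itself fell. Since Gm20547 covers 42.8% of the C2 exon bases, the call of C2 may depend on how reads were assigned. C4a, a close copy of C4b between which reads could be split, had 9 to 20 counts in each library and did not pass.

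Of the lectin pathway only Fcna, the ficolin A gene, was tested, and it fell to 5.81 ± 0.539 CPM with the inhibitor against 8.60 ± 0.778 CPM with DMSO (log2 fold change −0.57, adjusted p = 0.00456). The mannose-binding lectin genes Mbl1 and Mbl2 were at 0, as was the factor D gene Cfd. No terminal pathway gene was tested. C6, C7, C8a, C8b and C9 were at 0 in all 6 libraries, and Hc, the mouse C5 gene, had 0, 0 and 0 counts with the inhibitor and 0, 3 and 1 with DMSO. A count of 0 allows a level of up to 0.116 to 0.166 CPM, depending on the library and taking 3 counts as the limit, which covers counting error only.

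Regulators did not share a direction. Serping1, the C1 inhibitor that blocks C1r and C1s, was the single riser, at 93.9, 104.2 and 105.6 CPM with the inhibitor and 67.0, 62.3 and 62.9 CPM with DMSO (log2 fold change 0.66, SE 0.059, adjusted p = 4.46e-05). Cd55, which speeds the decay of the C3-cleaving enzymes, fell 1.91-fold, to 34.0 ± 1.55 CPM with the inhibitor against 64.9 ± 5.70 CPM with DMSO. Cd59a, which blocks the membrane attack complex, fell 1.68-fold (adjusted p = 0.00922) at a low level, being at 1.56 ± 0.218 CPM with the inhibitor and 2.64 ± 0.253 CPM with DMSO. Clu, Cr1l, Cd46 and Cd59b were among those that did not pass.

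Among receptors, Itgax, the alpha chain of complement receptor 4, was at 467 ± 14.8 CPM with the inhibitor and 833 ± 42.4 CPM with DMSO (log2 fold change −0.84, SE 0.050, adjusted p = 5.35e-06). Vsig4, a macrophage receptor for C3 fragments, fell 2.47-fold at a low level, with 1.36 ± 0.318 CPM with the inhibitor and 3.37 ± 0.0937 CPM with DMSO. Itgam, the alpha chain of complement receptor 3, was at 145.8, 206.3 and 216.5 CPM with the inhibitor and at 238.8, 241.0 and 268.5 CPM with DMSO (−0.40, adjusted p = 0.0364). Exons of Gm49368 on the same strand cover 68.7% of those of Itgam. The sum of both was at 262.7, 259.9 and 266.6 CPM with the inhibitor and at 383.5, 408.2 and 408.2 CPM with DMSO (log2 fold change −0.60, SE 0.042, adjusted p = 1.10e-05). Itgam alone did not pass when any 1 of the DMSO libraries was left out (adjusted p = 0.0566, 0.0629 and 0.108 without replicates 1, 2 and 3) or with library totals (0.103).

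Their shared beta chain gene Itgb2 did not pass (−0.05, adjusted p = 0.552), nor did Cd93 (0.04) and C5ar2 (−0.60). C1qbp, a C1q-binding protein found mainly in mitochondria, fell by 0.15 on the log2 scale (adjusted p = 0.0136), but not with library totals (adjusted p = 0.473) or without inhibitor replicate 1 (0.0557) or 2 (0.0546). With library totals Cd93 passed (0.15, adjusted p = 0.0101).

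**Figure D5:**
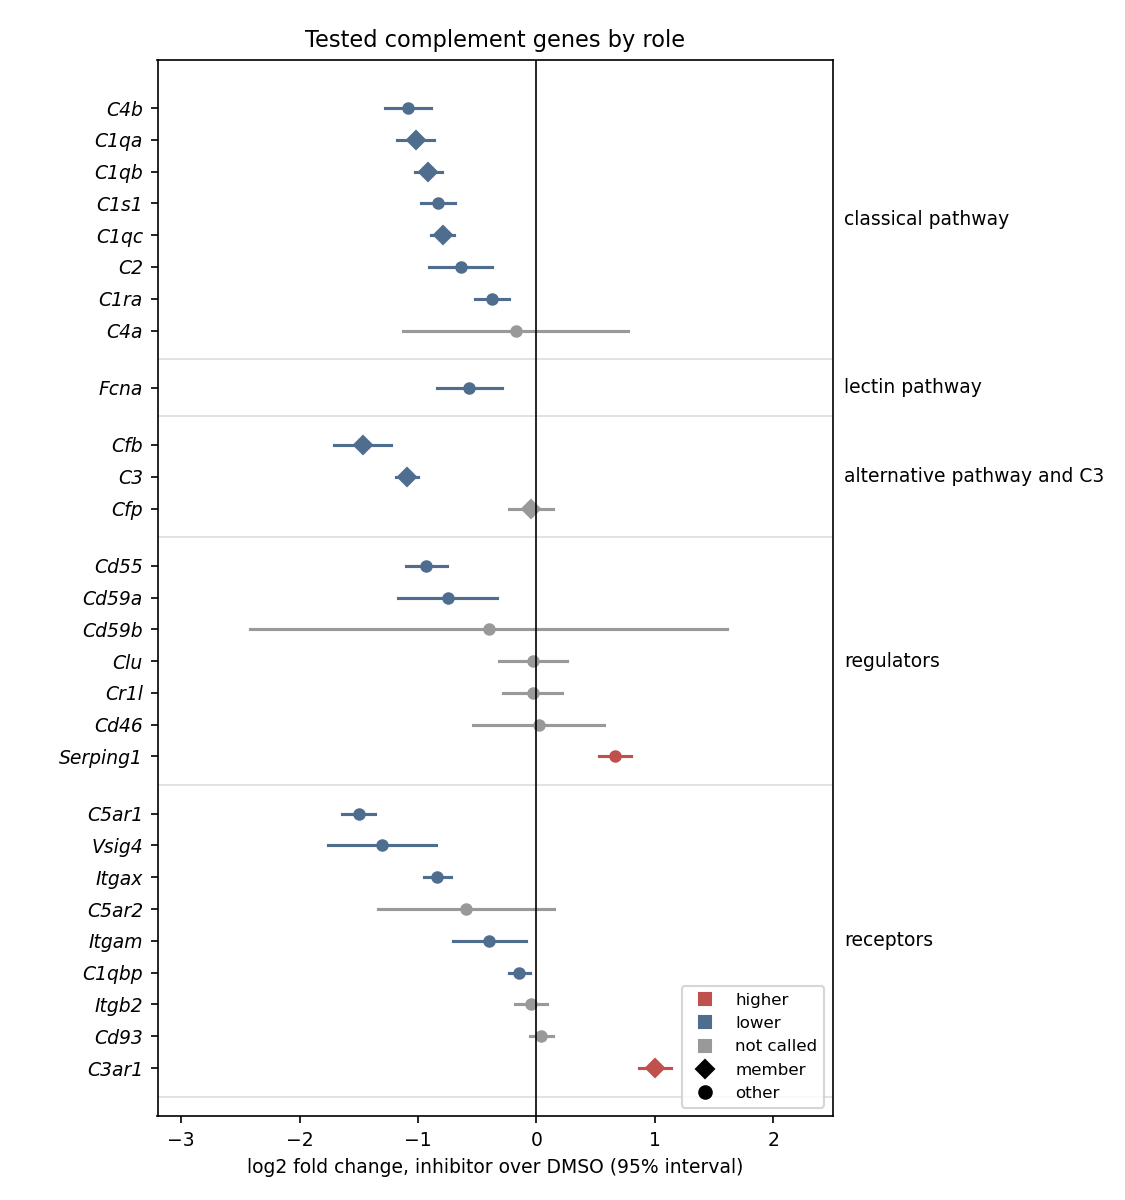
Log2 fold change, inhibitor over DMSO, of tested complement genes grouped by role, with 95% intervals as lines; diamonds are the 7 genes and circles the others, coloured by call. Called classical pathway genes lie below 0 without exception, and C3ar1 and Serping1 are the genes called above 0.

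Genes within 50000 bases of the 7 were also read. Of 19 tested neighbours 4 were higher, 6 were lower and 9 did not pass. The share called was thus close to the 51.5% of all tested genes. The C1q cluster had 1 tested neighbour, the receptor tyrosine kinase gene Ephb2, which fell (−1.38, SE 0.19) and was at 3.44 ± 0.852 CPM with the inhibitor and 8.92 ± 1.04 CPM with DMSO. Beside C3ar1, the transcription factor gene Foxj2 rose (0.57, SE 0.055) and so did Necap1 (0.37, SE 0.047), while Slc2a3 did not pass (−0.34). Beside C3, Gpr108 rose (0.16, SE 0.053) and Trip10 did not pass (−0.15). In the dense region around Cfb, besides C2, Skiv2l (−0.30), Dxo (−0.27), Zbtb12 (−0.33) and Ehmt2 (−0.35) fell, by less than Cfb, and Nelfe, Stk19, C4a and Gm20547 did not pass. Beside Cfp, the synapsin gene Syn1 rose to 5.96 ± 0.584 CPM with the inhibitor against 1.26 ± 0.297 CPM with DMSO, and Elk1, Uxt and A230072C01Rik did not pass.

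The genes whose 6 library values were most like those of C1qb, C3 and C3ar1 were found among 10119 genes with a mean of at least 5 CPM, by the Euclidean distance between centred log2 CPM values. For C1qb these were Timp2 (distance 0.0746), Pck2 (0.0824) and Slamf8 (0.0889). For C3 they were Cdh11 (0.0829), Emp2 (0.0863) and H2-T24 (0.0894). For C3ar1 they were Zfp608 (0.0701), Plekhj1 (0.120) and Igf2bp2 (0.123). With 2 groups of 3 libraries this measure is set mainly by the size of the group difference.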

How the data were processed

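The authors deposited 1 table of raw counts, with a row for each Ensembl gene and a column for each library. HISAT2, StringTie 1.3.0 and edgeR are named with build mm10, per the submitters' processing notes. Which tool did what, the counter, its annotation and its strand setting: none is given in the sources used here, so counts of overlapping genes depend on unknown rules. Symbols, coordinates and exon lengths are from GENCODE M21 (same build), matched for 34267 of 34745 genes. The 478 genes without a symbol held 0.143% to 0.199% of counts and were kept.

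Counts were tested in R 4.3.3 with edgeR 4.0.16 (quasi-likelihood test, TMM scaling, filterByExpr with a minimum count of 10, pretreatment as only factor). A call means a Benjamini-Hochberg adjusted p, over all tested genes, under 0.05. Fold changes are inhibitor over DMSO, the SE is the size of the log2 fold change divided by √F, and 95% intervals use the moderated degrees of freedom. RPKM was computed from TMM-scaled CPM and the union of exons. For ratios 0.5 was added to each count. The fit was tried on simulated counts in which few genes changed, with equal numbers higher and lower. Scaling under a change as wide as the one seen here was not tested.

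Libraries were grouped by title. The labels name no separate animals or cultures for replicates, so the spread behind each p-value may be technical. Counts of libraries of 1 group differed with a chi-square of 9.25 to 14.3 per degree of freedom, so none was a copy of another. The 7 genes and all lists were chosen with earlier results of these data known. Named by rule were the 7 genes, the 12 other complement genes with the smallest p and any that a small count singles out, neighbours within 50000 bases, and the 3 genes most alike in pattern. Alternatives were median-of-ratios factors, library totals, no filter, only genes averaging 5 CPM or more, DESeq2 1.42.0, a replicate block, an adjusted p under 0.01, leaving out each library, 1 count added in ratios, and the longest transcript as length. Sums of overlapping genes were added after the data were seen. Protein sequences were not analysed here, and 1 gene of the complement list is counted but not reported here. Dendritic cell, B cell, T and NK cell, mast cell and erythroid markers each summed, within their list, to at most 17.6 CPM in any library, and of these only the dendritic cell gene Zbtb46 was called (lower).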

Additional observations from a re-analysis of the deposited data

How the results depend on the processing

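All 7 complement genes kept their direction and call, or for Cfp the absence of a call, in every alternative run, including each library left out, except that the sign of Cfp turned with library totals and without DMSO replicate 2. The log2 fold change ranged from −1.11 to −0.98 for C3, from 0.95 to 1.11 for C3ar1 and from −1.57 to −1.36 for Cfb when overlapping genes were not summed. The replicate block gave 1 higher and 5 lower of the 7, 2 and 17 of the 55, and 3215 and 3510 of all genes, and changed none of these counts by over 1.5 times. Deviations of same-numbered libraries correlated at −0.0259 to 0.0251, against −0.0274 to 0.0351 for libraries of other numbers. This gave no sign that the numbers pair the samples, but with 3 libraries in each group it cannot exclude pairing. At an adjusted p under 0.01, 2257 genes were higher, in place of 3446. The log2 difference in the ratio of C3 to Cfb turned to −0.018 with Gm20547 added to Cfb (exact permutation p = 0.9). With the longest transcript as length, C1qc was at 60.7 RPKM with the inhibitor and 105 RPKM with DMSO. Low counts limit C4a, Cd46, Cd59b and C5ar2, whose intervals were wide.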
